A study of Danio rerio with 2 samples.

Results

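Coronary-type endothelial cells were picked out of single-cell RNA libraries of injured zebrafish ventricles as the barcodes rich in rbp2a, plvapb, cxcl12b, ca16b and rbp7b. They numbered 308 of 10763 kept barcodes, with 261 of 7174 in the cd74a;cd74b mutant library and 47 of 3589 in the wild-type library. Members were chosen by their UMIs (unique molecular identifiers, counts of captured transcript molecules) of these 5 genes, so the levels of the 5 are a description and not a result. A kept barcode had more than 300 genes detected and at most 70% of its UMIs in mitochondrial genes. A member had at least 2 of the 5 genes detected, at least 3 UMIs of them in sum, and a share of its UMIs in them at least 3 times that of all kept barcodes. A barcode was dropped where this fold was higher for 6 endocardial genes (nppc, chst1, ntn1b, aqp8a.1, spock3 and cyp1b1) or for 5 genes of a second endothelial set (bmp6, edn2, vwf, bmp16 and slit2), which removed 4 mutant barcodes and 0 wild-type ones.

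The mutant fish carried mutations in both cd74a (allele bns454) and cd74b (allele bns456), whose product chaperones MHC class II proteins on their way to the cell surface, and the other library came from wild-type fish. Both held cells of the border zone and injured tissue at 120 hours post-cryoinjury, a local freezing injury of the ventricle. Each library was a pool of 4 ventricles from 2 females and 2 males. There was thus 1 library per genotype, its fish could not be told apart, and no test between genotypes was possible. The fish were of the AB strain and between 3 and 12 months old, and the age of each pool was not given in the sources used here. Every interval below is at 95% and covers counting error only, not the spread between fish. Intervals of levels and of ratios of levels treat UMIs as independent, so they leave out the spread between barcodes too.

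Coronary vessels carry blood to the heart wall. In zebrafish they arise from endocardial cells, the endothelium that lines the chambers, and grow over the ventricle guided by the chemokine Cxcl12b and its receptor Cxcr4a. After cryoinjury they regrow into the wound early, before new muscle forms. Retinol binding proteins such as those of rbp2a and rbp7b carry vitamin A derivatives within cells, and plvapb encodes a protein of the diaphragms that close endothelial vesicles and pores.

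The depth of the members differed between libraries. The 261 mutant members held a median of 1225 non-mitochondrial UMIs (455 to 21872) and 399 genes, and the 47 wild-type members a median of 1973 (545 to 5487) and 588 genes. Summed, they gave 477288 UMIs in the mutant and 99899 in the wild-type library, which are the denominators of all levels below, written as CPM, counts per 1000000 non-mitochondrial UMIs. The median share of mitochondrial UMIs was 18.7% in mutant members and 11.8% in wild-type members. The other kept barcodes had medians of 1042 UMIs in the mutant and 1101 in the wild-type library. The libraries shared 15 barcode sequences, and 0 members were among them.

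Among the markers, rbp2a supplied most of the UMIs that chose the members, 5166 of 5898 in the mutant and 645 of 945 in the wild-type library. Its level was 10824 CPM (10531 to 11123) in mutant members and 6457 CPM (5968 to 6975) in wild-type members. For cxcl12b, the ligand that guides coronary growth, the levels were 857 and 2282 CPM in mutant and wild-type members. The corresponding values were 379 and 250.3 CPM for rbp7b, 176 and 210.2 CPM for ca16b, and 122 and 260.3 CPM for plvapb. A single wild-type barcode held 14 of the 21 ca16b UMIs of that library.

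Few members carried all 5 markers. In the mutant library 189 members had 2 of the genes, 56 had 3, 14 had 4 and 2 had 5, and in the wild-type library 26 had 2, 16 had 3, 5 had 4 and 0 had 5. A UMI of rbp2a was found in 96.9% of mutant and 89.4% of wild-type members, and one of cxcl12b in 55.2% and 80.9%. For rbp7b the shares were 40.2% and 34.0%, and for ca16b 24.9% and 14.9%. Only 17.2% of mutant members and 36.2% of wild-type members had a plvapb UMI, so most members were chosen without it. Macrophage-gated barcodes, cells that should lack these genes, were those that passed a gate on macrophage markers and were not members. Leaving out the 4 mutant and 2 wild-type members that passed it lowers the shares of the 5 genes there. Median depths were 1305 UMIs in the mutant and 1113 in the wild-type library, and rbp2a was found in 6.40% and 4.33% of these barcodes. The 4 other markers reached at most 1.18% in macrophage-gated barcodes of either library. At a fixed depth of 500 UMIs per barcode, rbp2a remained in 88.5% of 260 mutant members and 68.1% of 47 wild-type members.

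Near the thresholds, 29 mutant and 3 wild-type members had only 3 marker UMIs, while 53 mutant and 11 wild-type barcodes with 2 of the genes had 2 UMIs and stayed out. A fold between 3 and 4 was seen in 18 mutant and 3 wild-type members. The lowest fold was 3.25 in mutant and 3.09 in wild-type members, and just outside, the highest was 2.93 in the mutant and 2.17 in the wild-type library. The median fold of the members was 12.5 in the mutant and 11.3 in the wild-type library.

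**Figure D1:**
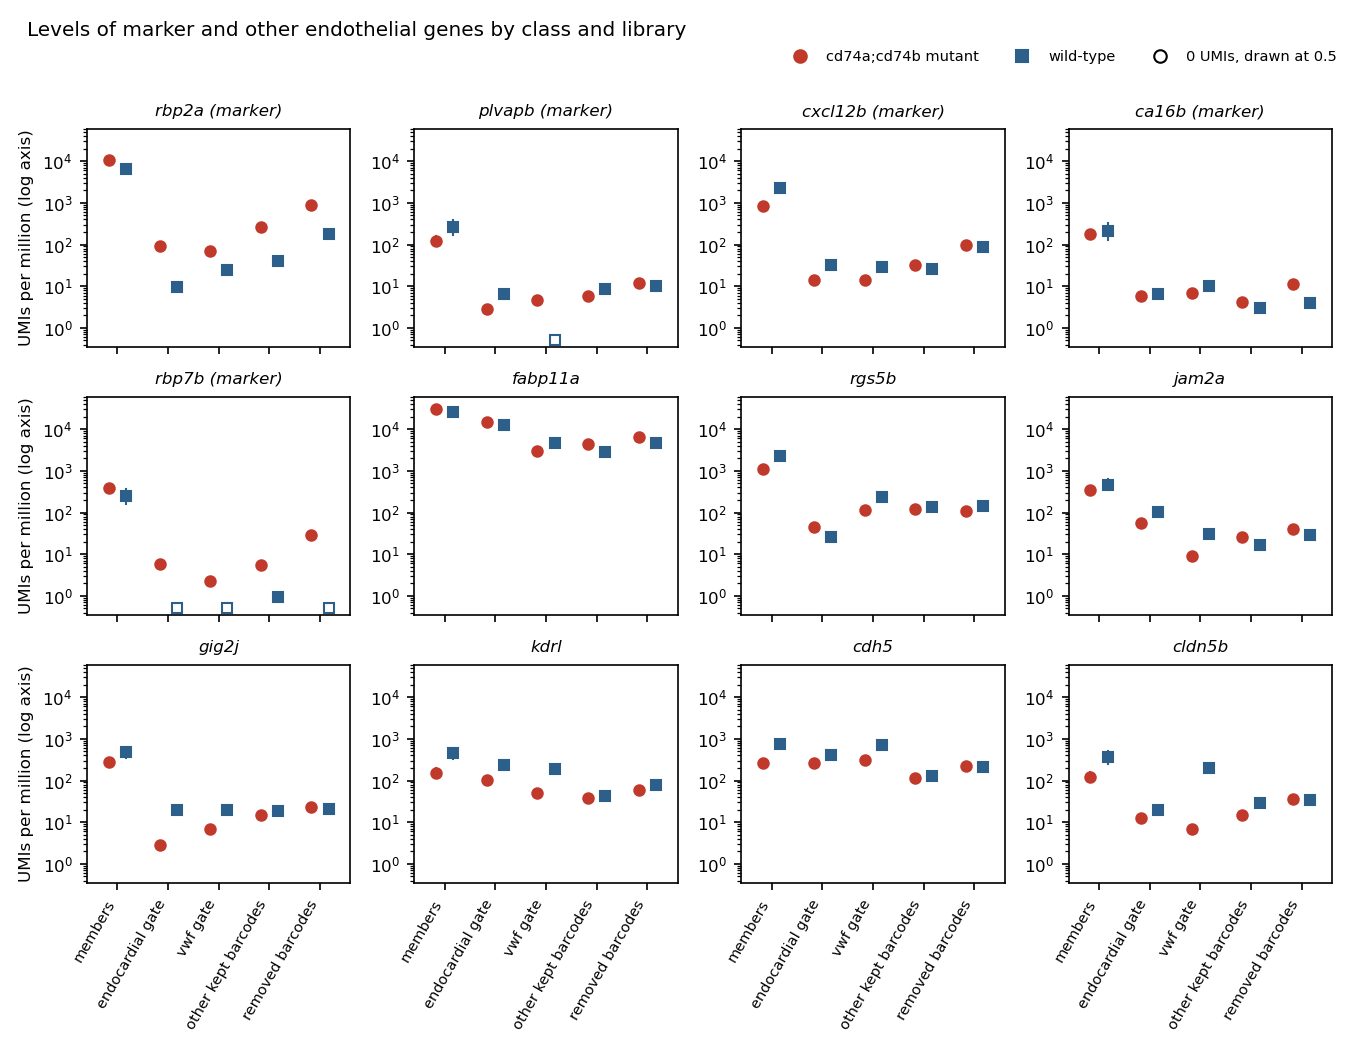
Levels of the 5 marker genes and of 7 other genes in CPM (log axis) in 5 classes of barcodes, mutant library (red circles) and wild-type library (blue squares), with 95% counting intervals for the members and open symbols at 0.5 for 0 UMIs. In mutant members rbp2a stood at 10824 CPM, against 265 CPM in the other kept barcodes and 912 CPM in the barcodes removed by the filters.

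Each marker was also high in barcodes chosen without it. The 5 genes were chosen together with earlier results of these data known, so this is a description and not support for them. A gate of the other 4 genes with rbp2a omitted took 71 mutant and 25 wild-type barcodes, and 61 and 22 of these were members. They held rbp2a at 10878 CPM (10427 to 11344) in the mutant and 6355 CPM (5756 to 6998) in the wild-type library, against 559 and 83.2 CPM in the other kept barcodes, log2 ratios of 4.28 and 6.26. Gated without itself, rbp7b had log2 ratios of 3.38 and 6.34 in the mutant and wild-type library, ca16b 3.83 and 5.86, plvapb 3.13 and 4.60, and cxcl12b 3.05 and 5.30. The ratio was above 8-fold in each case in both libraries, in barcodes that were mostly members. Every ratio was larger in the wild-type library, and this difference was not tested.

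The members carried endothelial transcripts. Of 20 pan-endothelial genes, 12 were measured in the members, meaning that they had at least 30 UMIs in both libraries together, and 9 of these were at least 2-fold higher than in the other kept barcodes in each library, against 11.1% of all measured genes. The median log2 ratio of the 12 over the other kept barcodes was 1.72 in the mutant and 2.61 in the wild-type library, beside medians of -0.07 and 0.03 over 1113 measured genes. The summed level of the 20 genes was 1804 CPM in mutant and 3964 CPM in wild-type members, against 587 and 680 CPM in the other kept barcodes and 969 and 1115 CPM in the removed ones. The vascular cadherin cdh5 stood at 270.3 and 771 CPM in mutant and wild-type members and at 115 and 127 CPM in the other kept barcodes. A cdh5 UMI was found in 34.5% of mutant and 72.3% of wild-type members, and at 500 UMIs per barcode in 11.2% and 38.3%, against 0.677% and 1.27% of macrophage-gated barcodes. Most mutant members therefore had no UMI of this defining gene.

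Of an arterial list few genes were measured, and of a venous and lymphatic list none. The 3 measured genes of the 9 on an arterial list were the ligands efnb2a and dll4 and the claudin cldn5b, and all 3 were at least 2-fold above the other kept barcodes in each library, against 11.1% of all measured genes. The 6 others had fewer than 30 UMIs in the members. The summed arterial level was 285 CPM in mutant and 791 CPM in wild-type members, against 72.0 and 95.5 CPM in the other kept barcodes. On the venous and lymphatic list 0 of 9 genes were measured, the sum was 27.2 CPM (13 UMIs) in mutant and 40.04 CPM (4 UMIs) in wild-type members, against 21.9 and 26.3 CPM in the other kept barcodes, and ephb4a, mrc1a and lyve1b were at 0. The Cxcl12 receptor gene cxcr4a had 4 UMIs in mutant and 6 in wild-type members, too few for a comparison. The proliferation marker mki67 had 6 UMIs in mutant members and 0 in wild-type members.

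Markers of most other cell types were lower in members than in the other kept barcodes. All 6 measured fibroblast genes were at least 2-fold lower in members than in the other kept barcodes of both libraries, against 5.84% of all measured genes, with sums of 2011 CPM in mutant and 1722 CPM in wild-type members against 6847 and 11358 CPM. The macrophage sum was 310.1 and 531 CPM in mutant and wild-type members, against 1444 and 2204 CPM, and the cardiomyocyte sum was 3851 and 3514 CPM, against 6037 and 6853 CPM. Mural markers summed to 729 and 741 CPM in mutant and wild-type members, below the 1179 and 1399 CPM of the other kept barcodes. Single mural genes were split. Of 5 measured, 1 was at least 2-fold higher and 1 at least 2-fold lower in both libraries, with median log2 ratios of -0.28 and 0.07. Erythrocyte markers summed to 857 and 1211 CPM and thrombocyte markers to 432 and 420.4 CPM, each below the other kept barcodes of the same library. Epicardial markers, at 337 and 661 CPM, were slightly above the 303 and 555 CPM of the other kept barcodes. Only 1 of these 5 genes was measured in the members, and 2 were at 0. Of T and NK cell markers there were 76 UMIs in mutant members, 74 of them of nkl.1, and 0 in wild-type members, and of neutrophil markers 10 and 0. No member passed the gates for epicardial cells, fibroblasts, neutrophils or T and NK cells. The neutrophil and the T and NK cell gates were rare in the other kept barcodes too, at 0.20% or less in each library. A total of 24 of 308 members passed another gate, most often that of erythrocytes (11) or macrophages (6). They were 17 in the mutant (6.51%) and 7 in the wild-type library (14.9%). Among the other kept barcodes 24.4% and 54.7% passed such a gate, so the wild-type share was higher there as well. Doublets were left in, and these 24 members were left out in an alternative.

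Besides the markers, 124 of 1113 measured genes were at least 2-fold higher in members than in the other kept barcodes in both libraries (11.1%). At least 2-fold lower in both were 65 (5.84%). Measured genes needed 30 UMIs in the members and none in the other barcodes, which favours genes higher in members. The part of this limit in both counts was not tested. The 25 genes that led this comparison, among those with 10 or more member UMIs in each library, stood 2.79 or more log2 units above the other kept barcodes in each library. All 25 stayed at least 2-fold higher in each of the 9 alternatives tried for them, among them the barcodes removed by the filters as the comparison.

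Of these 25 genes, 4 encode junction, adhesion or transport proteins. The junctional adhesion molecule gene jam2a was at 342 CPM in mutant and 470.5 CPM in wild-type members, against 25.5 and 16.5 CPM in the other kept barcodes. For cldn5b, which encodes a claudin of endothelial tight junctions, the levels were 124 and 360.4 CPM against 14.6 and 29.1 CPM. The adhesion gene pecam1 stood at 54.5 and 200.2 CPM in members and at 6.89 and 8.07 CPM in the others. The exporter of sphingosine-1-phosphate spns2 reached 209.5 and 360.4 CPM, against 21.4 and 19.1 CPM. All 4 were higher in the members of both libraries, by a log2 ratio of 3 or more.

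Further genes of the 25 encode transcription factors or their cofactors. The hypoxia-inducible factor gene epas1a was at 67.0 CPM in mutant and 140.1 CPM in wild-type members and at 4.80 and 4.88 CPM in the other kept barcodes. Log2 ratios in the mutant and wild-type library were 3.86 and 4.34 for the homeobox gene meox1, 3.44 and 4.25 for the bHLH gene tcf15, 3.04 and 4.89 for the zinc finger gene bcl6b, 3.53 and 4.51 for the LIM-domain binding gene ldb2a, and 3.27 and 3.56 for hopx. These genes had between 10 and 73 UMIs per library in the members, and they were higher in members of both libraries.

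Other genes of the 25 have varied roles or none that is annotated. The regulator of G-protein signalling rgs5b, a family that dampens receptor signals, was at 1136 CPM in mutant and 2312 CPM in wild-type members, against 119 and 139 CPM. The regulator of cell cycle gene rgcc was at 880.0 and 1532 CPM against 123 and 127 CPM. The complement factor D gene cfd was at 518 and 490.5 CPM against 60.9 and 44.1 CPM. The cholesterol hydroxylase ch25h was at 132 and 190.2 CPM against 10.5 and 6.94 CPM. The gene gig2j, of a family induced by virus infection in fish, stood at 277 and 480.5 CPM against 14.6 and 18.8 CPM. The myosin light chain gene mylz3 led the list with log2 ratios of 4.80 in the mutant and 5.34 in the wild-type library, from 46 and 12 UMIs. The other leading genes were notchl, si:dkey-262k9.2, oaz2b, wu:fj16a03, cd81b, arhgef9b, CABZ01075125.1, gpm6ab and aoc2, with log2 ratios between 2.79 and 5.37.

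**Figure D2:**
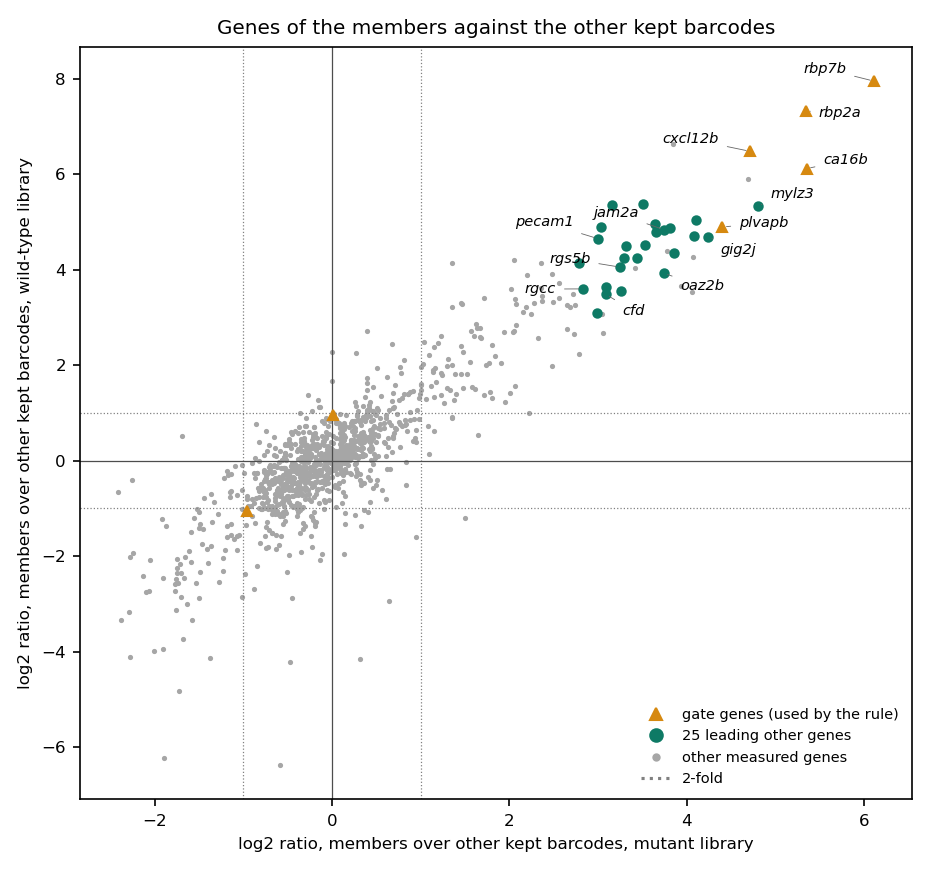
Log2 ratio of members over the other kept barcodes for each measured gene, mutant library on the x axis and wild-type library on the y axis; triangles mark genes used by the rule and green points the 25 leading other genes. The 124 genes beyond the upper 2-fold lines on both axes and the 65 beyond the lower ones form the upper right and lower left corners.

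Against the other kept barcodes, lipid handling stood out by a single abundant gene. The fatty acid binding protein gene fabp11a was at 29890 CPM (14266 UMIs) in mutant and 26537 CPM (2651 UMIs) in wild-type members, and at 4481 and 2774 CPM in the other kept barcodes. A UMI of it was in 98.1% of mutant and 95.7% of wild-type members at 500 UMIs per barcode, against 35.7% and 27.5% of macrophage-gated barcodes. Of the 5 measured genes of the lipid and retinoid list, fabp11a was the 1 gene at least 2-fold higher in both libraries. At least 2-fold lower in both were 2. Among all measured genes 11.1% were higher and 5.84% lower. The lipase gene lpl had log2 ratios of 0.88 and 1.03, and the plasma retinol carrier rbp4 ratios of -2.28 and -4.10. The fatty acid receptor cd36, the relative rbp7a and 6 other genes of the list were at 0 in the members. The whole list summed to 30225 CPM in mutant and 26877 CPM in wild-type members. In the endocardial gate the sums were 15245 and 13790 CPM, above the 5356 and 4334 CPM of the other kept barcodes.

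Measured caveolar genes, which build the membrane pits of endothelial cells, were above the other kept barcodes. All 4 measured genes of the 8 on that list were at least 2-fold higher in both libraries, against 11.1% of all measured genes. Over the endocardial gate 1 of the 4 was at least 2-fold higher in both libraries, against 8.18% of all measured genes. Levels below are again set against the other kept barcodes. Caveolin cav1 stood at 306 CPM in mutant and 340.3 CPM in wild-type members, against 116 and 131 CPM. The coat gene cavin2b was at 356 and 741 CPM against 131 and 212 CPM, and ehd2b at 186 and 450.5 CPM against 93.3 and 151 CPM. The collagen IV gene col4a1 of the vessel basement membrane had log2 ratios of 2.07 and 2.84, while the matrix genes sparc, fn1a and fn1b had negative ones, between -1.50 and -2.87. Members thus carried more col4a1 and less of these 3 matrix genes than the other kept barcodes.

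The members were then set against the barcodes of both competing gates, chosen by the same limits. The endocardial gate held 489 mutant and 246 wild-type barcodes and the vwf gate 171 and 117. Against the endocardial gate, 91 of 1113 genes were at least 2-fold higher in members of both libraries (8.18%) and 28 were lower (2.52%). Against the vwf gate, 136 genes were higher (12.2%) and 30 lower (2.7%). The minimum of UMIs, asked of the members alone, favours higher genes in both of these comparisons too. The median log2 ratio of all measured genes was -0.02 and 0.07 against the endocardial gate and 0.15 and 0.09 against the vwf gate in the mutant and wild-type library.

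The 8 genes furthest above the endocardial gate in both libraries were rgs5b, gig2j, wu:fj16a03, oaz2b, ch25h, mylz3, si:dkey-262k9.2 and notchl. In the endocardial gate rgs5b was at 45.9 CPM in the mutant and 26.0 CPM in the wild-type library, and the log2 ratios of the members over it were 4.61 and 6.39. Of the 8 lowest genes, mb and si:ch73-86n18.1 were on a list of endocardial markers and nppb on that of cardiomyocytes. Myoglobin, mb, was at 2150 CPM in mutant and 1882 CPM in wild-type members, against 11689 and 17323 CPM in the endocardial gate. The natriuretic peptide gene nppb had log2 ratios of -2.63 and -3.09 and tmem88b of -2.81 and -2.80. The others of the 8 lowest were si:ch73-86n18.1, ifitm1, anxa4, rhoca and s100a10b, with log2 ratios between -1.33 and -2.76. The retinoic acid synthesis gene aldh1a2, known to be induced in injured endocardium, was at 52.4 and 70.07 CPM in members, against 254 and 458 CPM. The pan-endothelial genes separated these classes little, with 2 of 12 at least 2-fold higher, 1 lower and medians of 0.30 and 0.51.

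Against the vwf gate, the 8 leading genes were ch25h, epas1a, cd81b, mylz3, si:dkey-262k9.2, gig2j, CABZ01075125.1 and si:ch211-195m9.3. Of the 37 UMIs of si:ch211-195m9.3 in wild-type members, 25 lay in 1 member that also passed the mural gate. In the vwf gate ch25h, epas1a and cd81b had 0 UMIs in both libraries, and mylz3, si:dkey-262k9.2 and CABZ01075125.1 had 1 UMI in the mutant and 0 in the wild-type library, so no ratio is given for them. For gig2j, with 3 and 4 UMIs there, the log2 ratios were 5.10 and 4.44. The matricellular genes ccn1 and ccn2a had log2 ratios between -1.82 and -2.44, the collagen gene col1a1a -1.61 and -3.68, and the protease gene ctsla -2.12 and -3.05. Lower too were rhoca, dap1b and fkbp1b, with log2 ratios between -1.51 and -2.68. The members thus had lower levels of these genes than vwf-gated barcodes of the same library.

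Within the members, cxcl12b and rbp7b were often found apart. In the mutant library 116 members had a UMI of cxcl12b and none of rbp7b, 77 had rbp7b without cxcl12b, 28 had both and 40 had neither. In the wild-type library these numbers were 29, 7, 9 and 2. The rule, which asks for any 2 of 5 genes, itself favours such a pattern, so it is given as a description. Median depth was nearly the same in both mutant subsets, 1157 UMIs with cxcl12b and 1154 with rbp7b, but 1999 and 1209 in the wild-type library. The genes named for this split were chosen after their values were seen.

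Of the genes examined that the rule did not use, rgs5b and wu:fj16a03 were higher with cxcl12b in both libraries, and others in 1 library alone. In the mutant library spns2 was at 282 CPM with cxcl12b and 71.3 CPM with rbp7b (log2 ratio 1.93, interval 0.99 to 3.13), oaz2b at 372 and 143 CPM (1.36, 0.64 to 2.18), and the Notch ligand gene jag2b at 107 and 28.5 CPM (1.78, 0.32 to 3.92). In the wild-type library the ratios were 0.55 for spns2 and 0.73 for oaz2b, with intervals that included 0, and jag2b had 5 and 0 UMIs. For rgs5b both libraries had intervals above 0, with log2 ratios of 0.82 (0.49 to 1.16) in the mutant and 1.48 (0.69 to 2.52) in the wild-type library. The same held for wu:fj16a03, at 1.00 (0.78 to 1.23) and 0.61 (0.11 to 1.19). The wild-type values with rbp7b came from 7 members, with 12 UMIs of rgs5b and 34 of wu:fj16a03. In the wild-type library alone TCIM, tcima and cav1 had intervals above 0. They had 37, 29 and 28 UMIs with cxcl12b and 0 with rbp7b there, and mutant log2 ratios of -0.21, -0.52 and 0.01. The smooth muscle genes tagln, acta2 and myh11a were higher with cxcl12b in the mutant library, at 1.90, 2.92 and 1.56. However, 27 of the 37 acta2 UMIs of mutant members lay in 1 member that also passed the mural gate. For myh11a the mutant interval was 0.20 to 3.43, and wild-type members had 10 UMIs with cxcl12b and 0 with rbp7b. In the mutant library alone mylz3 at 1.73 (0.60 to 3.24) and cfd at 0.91 (0.41 to 1.45) had intervals above 0 too. In the wild-type library tagln had 4 UMIs with cxcl12b and 2 with rbp7b, a log2 ratio of -1.29.

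Members with rbp7b had more myoglobin. For mb the log2 ratio of cxcl12b over rbp7b members was -1.25 (-1.48 to -1.03) in the mutant and -0.92 (-1.41 to -0.38) in the wild-type library, from 1444 and 3445 CPM in the mutant and 1735 and 3254 CPM in the wild-type library. The ratio for fabp11a was -0.58 (-0.64 to -0.53) in the mutant library and 0.04 (-0.13 to 0.23) in the wild-type one. In the mutant library alone rgcc at -0.66 and CABZ01075125.1 at -1.83 also had intervals below 0, and in the wild-type library alone sparc at -1.32. A difference in the VEGF receptor gene kdrl was not detectable at this depth, with log2 ratios of -0.06 (-0.90 to 0.81) in the mutant and 0.37 (-1.02 to 2.49) in the wild-type library.

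**Figure D3:**
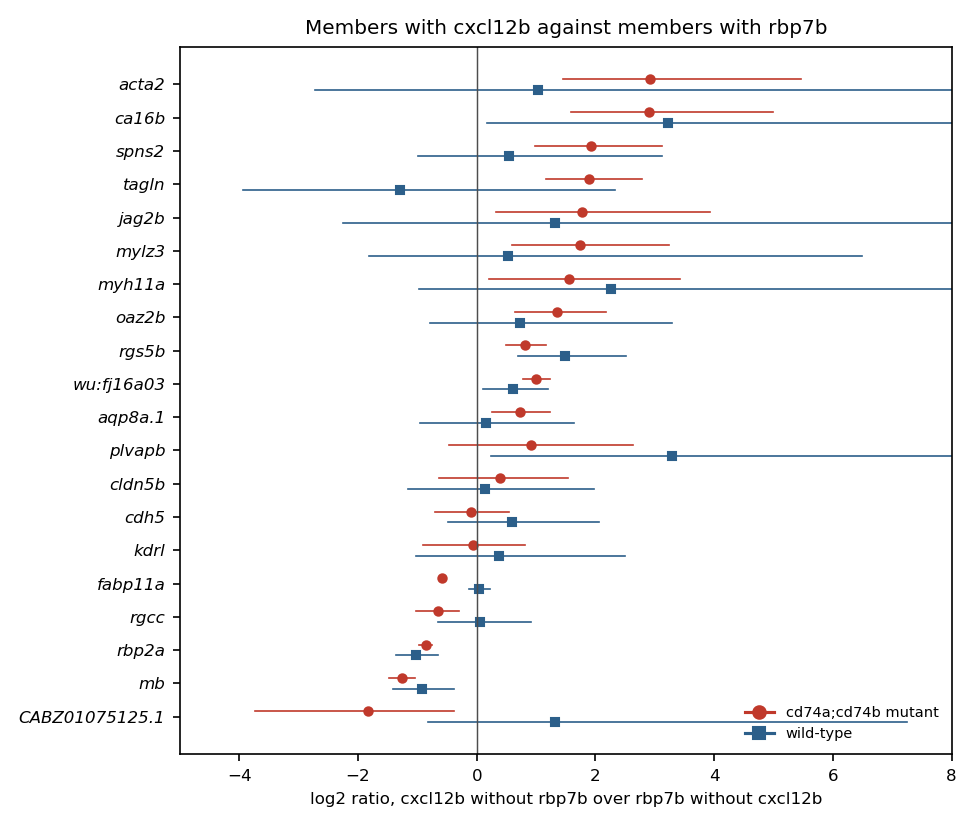
Log2 ratio of members with cxcl12b and no rbp7b over members with rbp7b and no cxcl12b for 20 genes, mutant (red circles) and wild-type (blue squares), with 95% counting intervals drawn up to 8. Among genes that the rule did not use, the interval lies above 0 in both libraries for rgs5b and wu:fj16a03 and below 0 for mb.

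Members made up a larger share of the mutant library. Their share of kept barcodes was 3.64% (3.22 to 4.098, exact binomial) in the mutant and 1.31% (0.964 to 1.74) in the wild-type library, a ratio of 2.78 (2.03 to 3.88). Among all barcodes of the 3 endothelial gates the shares were 28.3% (25.4 to 31.4) of 921 and 11.5% (8.55 to 15.0) of 410. The endocardial gate held 6.82% and 6.85% of kept barcodes, a ratio of 0.99 (0.85 to 1.16), and the vwf gate 2.38% and 3.26%, a ratio of 0.73 (0.57 to 0.93).

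The difference in share was smaller in a gate without rbp2a. There the shares were 0.990% and 0.697%, and the ratio of 1.42 had an interval of 0.89 to 2.34 that included 1. The level of rbp2a in barcodes removed by the filters was 912 CPM in the mutant and 179 CPM in the wild-type library, while in the other kept barcodes it was 265 and 40.2 CPM. Without cxcl12b, ca16b, plvapb or rbp7b in turn the ratio was 3.09, 2.60, 2.80 and 2.41. With over 500 genes asked of a barcode it was 1.95 (1.26 to 3.08), and with every barcode thinned to 500 UMIs it was 4.14 (2.42 to 7.62). The filters kept 47.4% of mutant and 77.9% of wild-type barcodes. Fibroblast-gated barcodes were 2.63% and 13.6% of the other kept barcodes in the mutant and wild-type library, and macrophage-gated ones 8.59% and 20.2%. The parts of the rbp2a background and of these differences in the share of members were not tested, and genotype and library cannot be told apart.

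**Figure D4:**
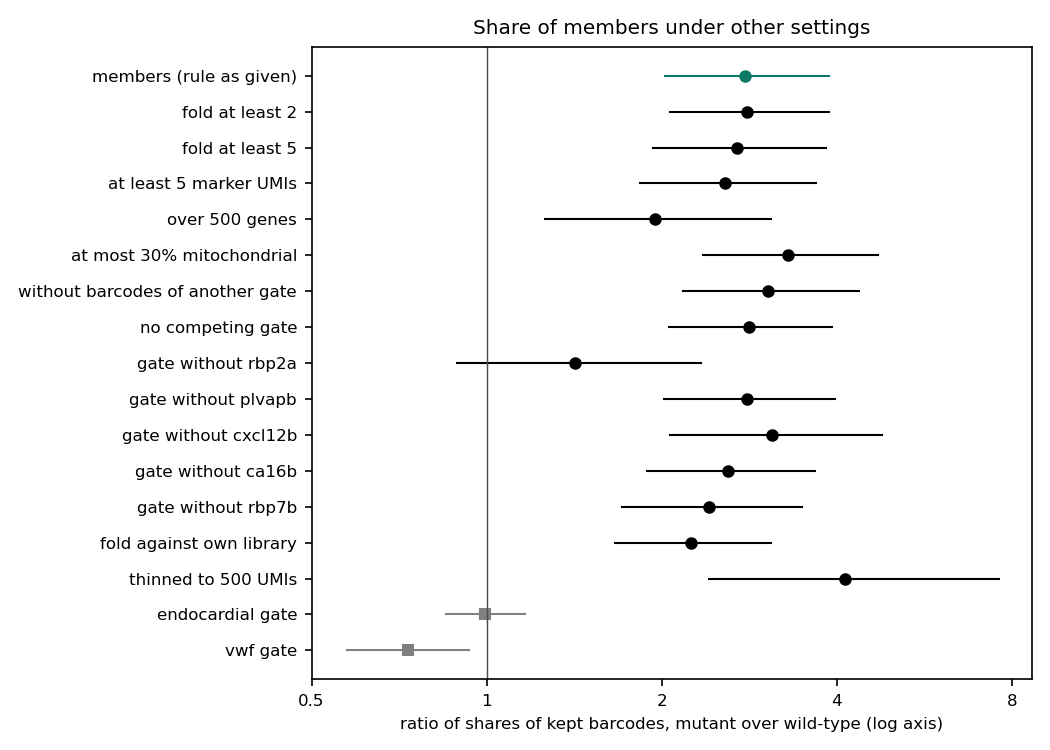
Ratio of the share of members among kept barcodes, mutant over wild-type library (log axis), with exact 95% intervals, for the rule as given (green), the alternatives (black) and both competing gates (grey squares). The ratio of 2.78 stayed above 1 in all 14 alternatives, and without rbp2a its interval of 0.89 to 2.34 reached below 1, while the competing gates stood at 0.99 and 0.73.

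Between genotypes, the targeted genes were checked first. In the members cd74a had 9 UMIs in the mutant and 19 in the wild-type library, or 18.9 CPM (8.62 to 35.8) and 190.2 CPM (115 to 297), and cd74b had 9 and 14 UMIs, or 18.9 and 140.1 CPM. The log2 ratios of mutant over wild type were -3.29 (-4.66 to -2.12) and -2.87 (-4.28 to -1.58). Both transcripts were thus lower in the mutant members, and lower too in the other kept barcodes, at -3.72 and -3.29. In the gate without rbp2a cd74b had 4 UMIs in the mutant and 3 in the wild-type library, a ratio of -1.27 (-3.78 to 1.56), and cd74a had 3 and 6, a ratio of -2.52 (-5.26 to -0.40).

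Over 1120 measured genes, 52 were at least 2-fold higher in mutant than in wild-type members (4.64%) and 224 at least 2-fold lower (20%). In either direction without a threshold, 741 were lower (66.2%) and 379 higher (33.8%). The median log2 ratio of all genes was -0.37, and ribosomal protein genes took 49.9% of the UMIs of mutant members and 42.3% of those of wild-type members. With the median set to 0 the split became 121 higher and 95 lower. The same median was -0.40 in the endocardial gate, -0.50 in the vwf gate and -0.46 in the other kept barcodes. The medians of gene lists below stand beside this -0.37.

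Endothelial genes were lower in the mutant members as a group. All 12 measured pan-endothelial genes had lower levels, 7 of them by at least 2-fold, with a median log2 ratio of -1.08, beside 66.2% lower and 20% at least 2-fold lower among all measured genes. For cdh5 the ratio was -1.52 (-1.93 to -1.09), for the VEGF receptor gene kdrl -1.54 (-2.09 to -0.97), from 155 CPM in mutant and 450.5 CPM in wild-type members, and for pecam1 -1.89 (-2.78 to -0.96). The junction and adhesion list had 8 of 8 measured genes lower, 6 by at least 2-fold, and a median of -1.25, against the same shares of all genes. The 4 measured genes of the vessel growth list were all at least 2-fold lower, with a median of -1.37. They were kdrl, efnb2a at -1.19 (-2.09 to -0.17), tie1 at -1.08 (-2.22 to 0.28) and flt1, a decoy receptor for VEGF. The ratio of flt1 was -2.12 (-2.89 to -1.34), from 32 UMIs in mutant and 29 in wild-type members. Since kdrl and tie1 are also on the pan-endothelial list, these lists are not independent.

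The Notch list had 3 of 4 measured genes at least 2-fold lower, beside 20% of all measured genes, and a median of -1.30. Its median was -0.95 over 6 genes in the endocardial gate and -1.06 over 4 genes in the vwf gate. The ligand gene dll4 of this list was at 52.4 CPM in mutant and 160.2 CPM in wild-type members, a log2 ratio of -1.63 (-2.57 to -0.61). The target genes her6 and her9 were at -1.33 and -1.28, and jag2b at 0.31 (-0.95 to 2.14). The caveolar list had a median of -0.62 over 4 genes, which became -1.23 in the gate without rbp2a and -1.17 with genes of at least 10 UMIs, with cav1 at -0.17 (-0.70 to 0.43), cavin2b at -1.06 (-1.46 to -0.64) and ehd2b at -1.28 (-1.81 to -0.72). The scavenging chemokine receptor gene ackr3b was at -1.58 (-2.63 to -0.44). Of the 25 leading genes over the other kept barcodes, 24 were lower in mutant members, 10 of them at least 2-fold. Among all measured genes 66.2% were lower and 20% at least 2-fold lower. The median of the 25 was -0.80 beside -0.37 for all genes. The 25 needed 10 member UMIs in each library, a stricter limit on the wild-type sum of 99899 UMIs than on the mutant 477288. This limit favours genes lower in the mutant, and its part in the count was not tested. The exception among the 25 was cfd at 0.07 (-0.37 to 0.55), and jam2a was at -0.47 and hopx at -0.48, near the median of all genes. Of the others, rgs5b was at -1.03 (-1.25 to -0.80), bcl6b at -1.90 (-2.50 to -1.29) and spns2 at -0.80 (-1.35 to -0.19).

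Endothelial genes were lower in the other endothelial gates of the mutant library too. The pan-endothelial median was -0.66 in the endocardial gate, -1.61 in the vwf gate and -0.22 in the other kept barcodes. In barcodes gated without rbp2a it was -1.12 over 8 genes, beside -0.39 for all 549 genes measured there. Among markers of other cell types, the median was 0.20 over 6 fibroblast genes and 0.04 over 11 cardiomyocyte genes, while c1qb and c1qc of macrophages were at -0.72 and -1.16. The mitochondrial share and the rbp2a background given above also differed between the libraries, and their part in these ratios was not tested.

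Stress genes were lower as well. Among 27 measured AP-1 and immediate early genes, which respond within minutes to injury and dissociation, 25 were lower in mutant members and 13 of them at least 2-fold, with a median log2 ratio of -0.97, beside 66.2% lower and 20% at least 2-fold lower among all measured genes. The levels of junba were 867 CPM in mutant and 1792 CPM in wild-type members, a ratio of -1.05 (-1.30 to -0.79), and those of fosab 991 and 1782 CPM, a ratio of -0.85 (-1.10 to -0.59). The cytokine signalling inhibitor socs3a was at -0.94 (-1.16 to -0.71). Of 13 measured heat shock genes 10 were lower, a share near that of all genes, 6 by at least 2-fold, and the median was -0.92. The inducible chaperone hsp70l was at 243 and 1111 CPM, a ratio of -2.19 (-2.58 to -1.80), and hsp70.3 at -1.44 (-1.71 to -1.15), while hspb1 was at 0.39, with an interval that included 0. The AP-1 and heat shock medians were -0.98 and -0.82 in the endocardial gate, -1.46 and -1.47 in the vwf gate, -0.78 and -0.84 in the other kept barcodes and -0.56 and -0.40 in the removed ones.

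Energy genes differed by pathway. The median was -0.59 over 13 glycolysis genes, with gapdhs at -0.86 (-1.14 to -0.58) and aldoaa at -0.24 (-0.69 to 0.27). It was 0.35 over 70 nuclear genes of oxidative phosphorylation, 51 of them higher and 7 at least 2-fold, beside 33.8% higher and 4.64% at least 2-fold higher among all genes, with atp5l at 0.52 (0.17 to 0.91). The oxidative phosphorylation median lay 0.72 above that of all genes. It was 0.049 over 48 genes in the gate without rbp2a, 0.15 in the endocardial gate, 0.30 in the vwf gate and 0.38 in the removed barcodes. The glycolysis median was -0.55 in the endocardial gate, -1.03 in the vwf gate and -0.84 in the other kept barcodes. Without members that passed another gate it was -0.21, above the -0.37 of all genes. Ribosomal protein genes had a median of 0.25 over 78 genes, 57 of them higher. The lipid and retinoid list had a median of 0.17, the value of fabp11a (0.11 to 0.23). The medians were -0.02 over 4 basement membrane genes, 0.34 over 4 proliferation genes and -0.04 over 5 MHC class II and antigen processing genes. In the last list mhc2a had 0 UMIs in wild-type members and so was counted through the mutant library alone. The median is the same with it set to the lower bound that a floor of 3 wild-type counts gives. That bound still ranks mhc2a as higher.

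**Figure D5:**
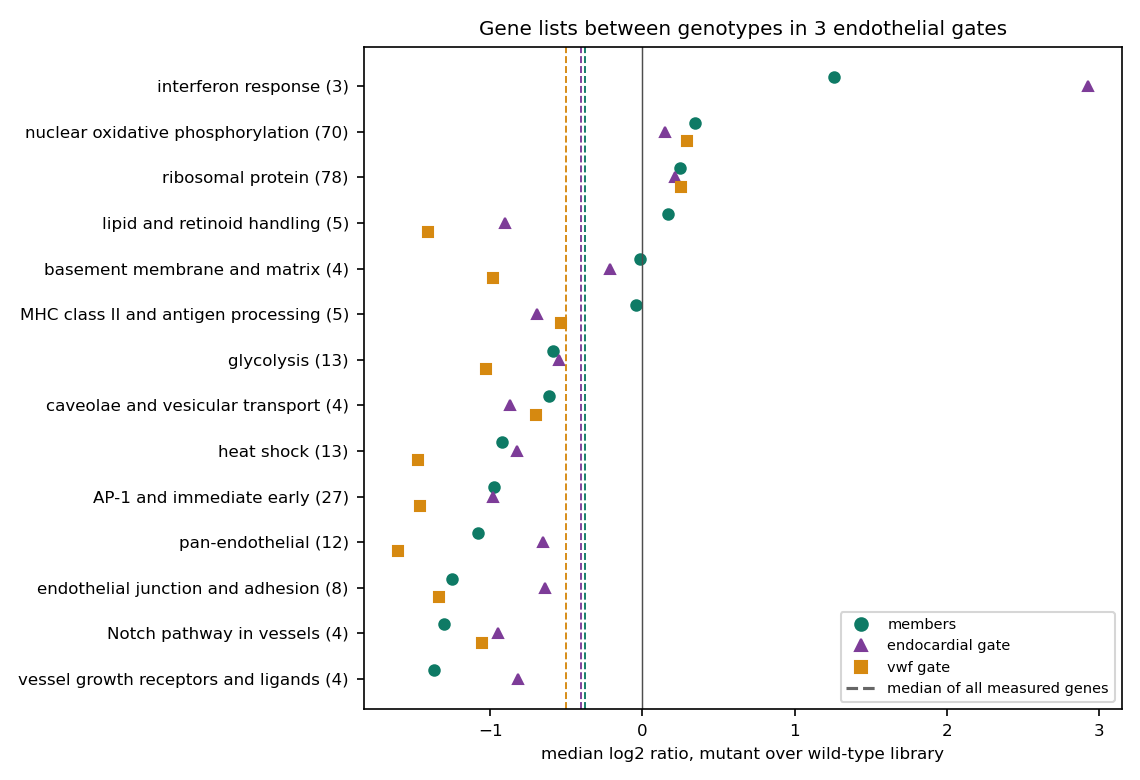
Median log2 ratio of mutant over wild-type library for 14 gene lists in the members (circles), the endocardial gate (triangles) and the vwf gate (squares), with the number of genes measured in the members in parentheses and the median of all measured genes of each class as a dashed line. The pan-endothelial, junction, Notch, vessel growth, AP-1 and heat shock medians of the members lie left of their dashed line at -0.37.

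The highest single ratios belonged to genes of immune and unnamed kind. CR318588.1 had 5982 UMIs in mutant and 1 in wild-type members, a log2 ratio of 9.71 (7.81 to 15.59), CR318588.3 had 109 and 1 UMIs, and CR318588.4 had 6479 and 289, a ratio of 2.23 (2.06 to 2.41). These 3 names share a clone, and how reads were divided among them was not given in the sources used here. CR318588.1 was in 93.1% of mutant and 2.13% of wild-type members, but also in 99.7% and 53.4% of macrophage-gated barcodes, and its ratio in the other kept barcodes was 3.92. The interferon-induced gene ifi45 had 157 and 3 UMIs, a ratio of 3.24 (1.88 to 5.75), against 2.14 in the other kept barcodes. With isg15 at 1.26 (-0.03 to 3.35) and stat1a at -0.11 (-0.98 to 0.98) the interferon list had a median of 1.26 over 3 genes. The gene zgc:152791 was at 2.18 (1.25 to 3.49), against 2.23 in the other kept barcodes.

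A few members decided some of the extreme values. The granule gene nkl.1 had 74 UMIs in mutant and 0 in wild-type members, at least 5.16-fold higher against a floor of 3 counts per library, but 66 of the 74 lay in 2 members and only 9 of 261 members had a UMI of it. The MHC class II gene mhc2a had 30 and 0 UMIs, and so was measured through the mutant library alone. The lysosomal gene grn1 had the lowest ratio, -2.75 (-3.05 to -2.45), with 162 UMIs in mutant and 228 in wild-type members, but 201 of the 228 were in 1 member that also passed the macrophage gate. Without the member of each library that held most of it the ratio was -0.01. Another wild-type member, which also passed the mural gate, held 25 of the 37 UMIs of si:ch211-195m9.3 (ratio -2.04, and -0.75 without it), 14 of the 41 of the integrin gene itga5 (-2.52 and -2.02) and 63 of the 228 of cxcl12b. The translation factor gene eif4a1a was at -2.17 (-2.92 to -1.41), with at most 7 of 31 wild-type UMIs in a member.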

How the data were processed

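Per the labels, cells were dissociated from tissue, dead cells were removed and each library was run on its own lane with droplet 3' chemistry (10x Genomics v3.1). The submitters' processing notes name STARsolo, Scanpy and danRer11, and versions and annotation were not given in the sources used here. The deposited values are raw UMI counts per gene and barcode, without normalization by the authors, for 32057 genes. The filters left 10763 barcodes, and 10827 with barcodes of exactly 300 genes included. No doublet caller was run.

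The limits on barcodes, the marker gate and both competing gates are given in the text. UMIs were summed per class and library, without 37 mitochondrial genes, and given as CPM with exact Poisson intervals. Ratios are log2 with 0.5 added to each sum, with exact conditional intervals (scipy 1.17.1, Python 3.11.15), and shares have Clopper-Pearson intervals, all at 95%. With 1 library per genotype, called means past 2-fold. The calculation was tested on simulated Poisson counts, which hold no spread between barcodes, so the test could not show its effect. Genes needed 30 UMIs in members, and list medians 3 genes.

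Members and lists were chosen with earlier results of these data known. Named were the targeted genes, the gate genes, up to 4 genes of each list with most UMIs and those at 0, the 6 highest and 6 lowest genotype ratios with 60 UMIs or more, the 25 leading genes over the other barcodes, the 8 highest and lowest against each competing gate, and genes in opposite directions between gates. Alternatives changed each limit, the scaling and the markers. A result that the rule would name against the vwf gate is not reported here.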

Additional observations from a re-analysis of the deposited data

Results flagged for a closer look

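In 11 genes, members and another endothelial gate had intervals on opposite sides of 0 for the genotype ratio (log2, mutant over wild type). Genes measured numbered 1120 in members, 1959 in the endocardial gate and 1251 in the vwf gate. How many were compared between gates is not given here, so the 11 stand without a share. These intervals treat UMIs as independent. The cut was 0, while the medians of all measured genes were -0.37, -0.40 and -0.50 in these classes. For rpl19 and rps12 every value below lies above the median of its class. With 1 library per genotype, the difference between the gates was not tested. Higher in mutant members were sparc at 0.59, against -0.39 in the endocardial and -0.80 in the vwf gate, and col1a1a at 0.87, against -0.53 and -1.19, both genes of the extracellular matrix. Likewise fabp11a was at 0.17, against -0.61 in the vwf gate, BX908782.2 at 1.18, against -1.50 in the endocardial gate, and rpl19 at 0.14, against -0.18 in the endocardial gate. Lower in mutant members were grn1 at -2.75, against 1.01 in the vwf gate, and the complement gene c1qc at -1.16, against 0.97 in the vwf gate. The metalloproteinase inhibitor timp2b was at -1.27, against 0.78 in the endocardial gate, and the ferritin gene fthl27 at -0.56, against 0.19 there. Further, si:ch211-1a19.3 was at -0.87, against 0.57 in the vwf gate. For rps12 the ratio was -0.10, below 0 but above the median of all genes in members, against 0.14 in the endocardial and 0.20 in the vwf gate. Of the wild-type UMIs, 1 member held 201 of 228 for grn1 and 10 of 24 for c1qc.

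Barcodes removed by the filters also met the marker limits, a signal in data that the comparisons leave out. They numbered 119 of 7968 in the mutant library (1.49%, 1.24 to 1.78) and 11 of 1018 in the wild-type library (1.08%, 0.541 to 1.93), and all of them had 300 genes or fewer.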

How the results depend on the processing

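No paired analysis was possible because each genotype has 1 library, and no replicate could be left out. The ratio of shares (2.78) stayed above 1 in all 14 alternatives and moved to 1.95 with over 500 genes, 1.42 without rbp2a in the gate and 4.14 after thinning. The counts of genes 2-fold higher and lower in mutant members (52 and 224) became 30 and 115 in the gate without rbp2a, which was chosen after seeing the data, 121 and 95 with the median of gene ratios at 0, 89 and 142 scaled to non-ribosomal UMIs, 189 and 810 with at least 10 UMIs, and 17 and 47 with at least 100 UMIs. The 124 genes higher in members than in other kept barcodes became 75 in the gate without rbp2a, 259 with at least 10 UMIs and 40 with at least 100 UMIs. Both minimums and the gate without rbp2a change how many genes are tested, so these counts are not on 1 scale. Between genotypes, 1120 genes were measured in the main setting and 549 in the gate without rbp2a. With at least 10 UMIs there were 2842, and with at least 100 UMIs 401. For ribosomal protein genes the median of 0.25 moved to 0.62 with the median of gene ratios at 0 and to 0.45 without their own UMIs in the scale.

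Medians of short lists changed sign. That of basement membrane genes (-0.02) was 0.091 at fold 2, 0.46 at fold 5, 0.11 without barcodes of another gate, 0.24 without rbp2a, 0.36 with the median at 0, 0.19 scaled to non-ribosomal UMIs, 0.30 as a mean over members and 0.35 with at least 100 UMIs. That of MHC class II genes (-0.04) was 0.33 with the median at 0, 0.16 scaled to non-ribosomal UMIs and 0.23 as a mean over members. In the other direction it was -0.77 at fold 5, -0.81 with 5 marker UMIs, -0.84 with at most 30% mitochondrial UMIs and -0.76 without barcodes of another gate. That of proliferation genes (0.34) was -0.13 with 5 marker UMIs, -0.16 with over 500 genes and -0.038 with at most 30% mitochondrial UMIs. For grn1 (-2.75) the ratio was 0.22 at fold 5, 0.25 with 5 marker UMIs, 0.17 without barcodes of another gate and 1.21 without rbp2a, and the cause in the first 2 was not tested. The pan-endothelial, AP-1, heat shock, glycolysis and oxidative phosphorylation medians kept their sign in all 13 alternatives each. This sign is set against 0, while the median of all genes was itself -0.37 in the main setting. The glycolysis median of -0.21 without barcodes of another gate was above that value. Depth limits the wild-type side, where 47 members leave most genes under 30 UMIs.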
